A study of Mus musculus with 9 samples.

Results

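Gastrocnemius muscle of mice carrying the Bub1b allele X753 was compared with wild-type muscle, gene by gene, by RNA sequencing. All animals were 3 months old and of a mixed 129Sve/C57BL/6 strain background. The compared groups were WT (wild-type Bub1b) and hetX753 (BubR1+/X753, with 1 copy of the allele), with 3 libraries each. The series also holds 3 libraries of hetL1002P (BubR1+/L1002P), of the same muscle, strain background and age, which entered the fit and 1 direct comparison. Every gene symbol that passed a filter on low counts was a member of the comparison, which gave 12989 of the 24062 symbols, or 54%. RNA came from whole muscle, so every level is a mixture over the cell types in it. Nothing in the labels ties the replicates of a group to different animals. Each p-value therefore reflects only how far these libraries scatter, and some of that scatter may be technical.

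BubR1, the product of Bub1b, belongs to the spindle assembly checkpoint, which holds a dividing cell before anaphase until each chromosome is attached to the spindle. Inherited alleles of the gene are linked to mosaic variegated aneuploidy. Adult muscle fibres are multinucleate cells that have left the cell cycle, so in this tissue dividing cells are few and lie mostly among satellite cells, fibroblasts, endothelium and blood-derived cells. Muscle switches between glucose and fatty acids as fuel. Insulin and contraction raise glucose uptake, while fasting and exercise turn on genes of fatty acid use through the nuclear receptors named PPARs.

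Bub1b itself had few reads in this muscle. The WT libraries held 21, 11 and 16 counts, and the hetX753 libraries 8, 8 and 5. As CPM (the count as a share of the library total after TMM scaling, and the unit of every level given here unless another is named), that was 0.621, 0.568 and 0.774 in WT and 0.287, 0.316 and 0.231 in hetX753. Each hetX753 library lay below each WT library, as at 15.8% of all genes tested. The gene did not pass the test over all genes (log2 fold change -1.21, SE 0.44, 95% interval -2.17 to -0.24, unadjusted p = 0.0189, adjusted p = 0.177 by edgeR's quasi-likelihood test with Benjamini-Hochberg adjustment). In hetL1002P Bub1b averaged 0.271 CPM, and hetX753 over hetL1002P stood at log2 0.0062 (adjusted p = 0.998 by the same test). A log2 fold change of 1 is a doubling, and positive values here mean higher in hetX753. Defining markers of skeletal muscle were abundant in both groups: all 20 of 20 were tested, and their summed level was 303402 to 339749 CPM in WT and 256926 to 279327 CPM in hetX753, so that the hetX753 sums lay below those of WT.

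The 6 libraries held between 19768149 and 33977252 counted reads, with counts above 0 for 15428 to 15996 symbols, so that 1 count was worth 0.0296 to 0.0516 CPM. On the second principal component of the 9 libraries (16.96% of the variance) the hetX753 libraries lay at -17.6, -21.7 and -17.8 and the WT libraries at 15.6, 11.8 and -6.13. On the first (39.69%), WT 3 lay at -47.5, apart from WT 1 at -8.34 and WT 2 at -9.52, while hetX753 lay at 8.84, 19.7 and 28.8. WT 3 also had the steepest relation of level to transcript length: log2 CPM fell by 0.282 per doubling of length relative to the mean library, against -0.0159 and -0.0754 in WT 1 and WT 2 and 0.0258, 0.0468 and 0.129 in hetX753. Library hetL1002P 3 lay at -32.5 on the first component, against 14.4 for hetL1002P 1 and 26.0 for hetL1002P 2. Its length slope was -0.124, against 0.119 and 0.176. Scaling by library totals in place of TMM moved the median gene to 0.122. Each fold change below is thus read against the middle of all tested genes, and each list median with library totals against 0.122.

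In hetX753 muscle 43 genes were higher and 23 lower than in WT at an adjusted p under 0.05, the threshold of every call here (0.331% and 0.177% of genes tested, 0.508% in either direction). Of these, 38 differed by at least 2-fold, 25 of them higher and 13 lower, and 61 were protein-coding. The smallest adjusted p was 0.0168, shared by 7 genes, and the smallest called fold change was 0.59 on the log2 scale. The groups did not overlap at any of the 66 genes, and among all genes tested they did not overlap at 4223 (32.5%). An unadjusted p under 0.05 was reached by 2718 genes (20.9%). The number of calls rested on single libraries. It was 0 for edgeR with WT 1 left out (where 2894 genes had an unadjusted p under 0.05), 9 with WT 2, 7 with WT 3, 34 with hetX753 1, 17 with hetX753 2 and 3 with hetX753 3 left out. The hetL1002P libraries enter this comparison through the low-count filter, the scaling and the shared estimate of spread. The number of calls was 13 with hetL1002P 1, 70 with hetL1002P 2 and 669 with hetL1002P 3 left out. All 66 genes kept their direction in these 9 fits and in the 13 other settings, wherever they were tested. Their groups do not overlap, so leaving out 1 library could hardly reverse a direction, and the other settings reuse the same libraries. The kept direction is therefore no measure of stability. Of the 62 called genes followed by name, 35 lost their call when library totals replaced TMM.

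**Figure D1:**
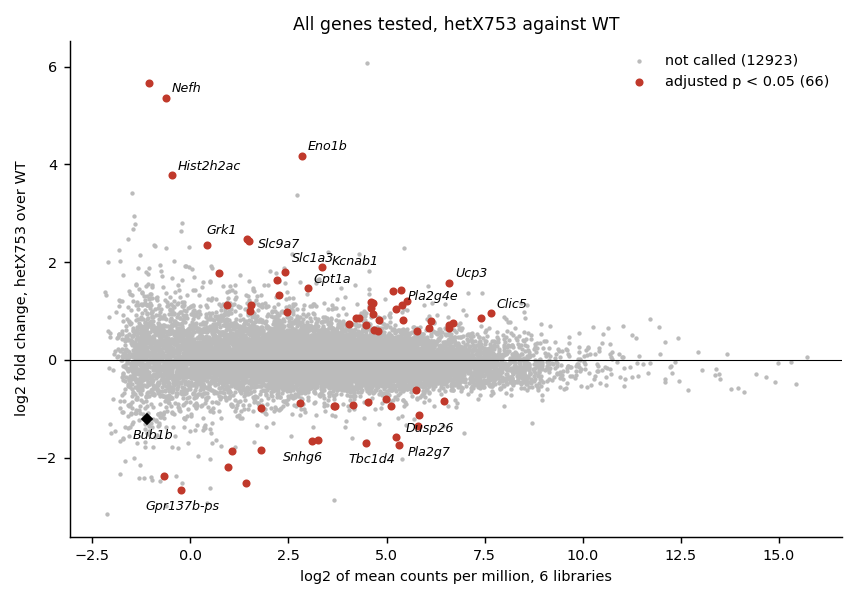
Each point is a gene tested. The x axis is the log2 of mean CPM over the 6 libraries and the y axis the log2 fold change of hetX753 over WT, with the 66 called genes in red, all others in grey and Bub1b as a black diamond. Called genes lie on both sides of 0 and from below 1 CPM (5 genes) to above 100 CPM (Clic5).

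TruSeq libraries of this version do not mark strand, so reads of overlapping genes cannot be told apart. Exons of Ccne2, Cyp2f2, Hist2h2ac, Igf2, Kcnab1, Kcnma1, Map4k5, Mccc1, Nin, Ocel1, Optn, Parp3, Pla2g7, Pyroxd2, Slc20a2, Snhg6, Spry1, Sugp2, Synj2 and Tm6sf1 overlap a gene on the other strand in GENCODE M21. Exons of Acsl3, Akr1c14, Igf2, Pla2g4e, Sec31b and Tm6sf1 overlap another gene on the same strand. The values of these genes may include reads of their neighbours.

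A few genes of the switch to fatty acids rose. Cpt1a, an enzyme that hands long-chain fatty acids to carnitine for entry into mitochondria, Ucp3, an uncoupling protein of the inner mitochondrial membrane, and Cat, the catalase that removes hydrogen peroxide in peroxisomes, were each higher in every hetX753 library than in any WT library. All are known targets of PPARs. The 250 bases upstream of their start sites are printed because these are the called members of the list; capitals mark AGGTCA, the core site of nuclear receptors, read on either strand (RefSeq, GRCm38.p6, each 5' to 3' on the strand of its gene). For Cpt1a the window is chr19:3323051-3323300 on the plus strand, with 1 core site starting at -94. This window lies inside the annotated gene, which starts at 3322326, so it belongs to an internal start site. For Ucp3 it is chr7:100472741-100472990 on the plus strand, with core sites at -149 and -44. For Cat it is chr2:103485154-103485403 on the minus strand, with 1 core site at -204. The window of Acot2, a list member that was not called, held 0 core sites.
Cpt1a: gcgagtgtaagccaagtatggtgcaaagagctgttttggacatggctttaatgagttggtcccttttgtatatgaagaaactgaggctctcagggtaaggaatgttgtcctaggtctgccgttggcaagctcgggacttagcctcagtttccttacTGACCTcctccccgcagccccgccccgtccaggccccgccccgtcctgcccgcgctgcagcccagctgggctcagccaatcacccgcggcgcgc
Ucp3: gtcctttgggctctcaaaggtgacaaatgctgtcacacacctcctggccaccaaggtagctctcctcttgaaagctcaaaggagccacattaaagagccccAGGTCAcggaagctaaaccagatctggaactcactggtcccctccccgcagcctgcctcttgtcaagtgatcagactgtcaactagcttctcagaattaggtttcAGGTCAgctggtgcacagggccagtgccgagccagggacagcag
Cat: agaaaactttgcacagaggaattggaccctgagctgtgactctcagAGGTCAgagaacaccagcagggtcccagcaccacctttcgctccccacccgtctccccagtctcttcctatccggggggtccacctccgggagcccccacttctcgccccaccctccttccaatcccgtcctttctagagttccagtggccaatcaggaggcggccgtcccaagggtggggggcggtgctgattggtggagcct

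The core site is common: 4607 of the 32851 windows of this length in the RefSeq table hold it, and of the 61 windows of called genes 10 do (16.4%; 48 of the called genes had a window). The direct repeat that PPAR dimers bind, AGGTCA and AGGTCA with any 1 base between them, was in 0.0335% of all windows and in 0 of those 61. Among 17 motifs searched on both strands after the values were known, GGGCGG was in 32.7% of all windows and 52.5% of those of called genes, and TATAAA in 12.4% and 3.28%. All windows together belong to 27025 genes, more than the 12989 tested, and the shares over tested genes alone were not computed. A difference between called and all windows may thus be one between tested and untested genes. These matches describe letters in the windows and are not measured binding.

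Cpt1a stood at 4.17, 4.59 and 4.01 CPM in the WT libraries and 8.41, 13.2 and 13.8 in hetX753 (log2 1.47, SE 0.21, adjusted p = 0.0250). The lowest hetX753 library, hetX753 1, was still well above the highest WT library. Ucp3 stood at 51.8, 47.3 and 46.7 CPM in WT and 95.4, 189.5 and 152 in hetX753 (log2 1.58, SE 0.29, adjusted p = 0.0459), again with hetX753 1 the lowest of its group. Cat rose less, from 54.6, 54.5 and 48.3 to 78.1, 82.7 and 88.5 CPM (log2 0.66, SE 0.12, adjusted p = 0.0487), and its spread within each group was narrow. Of 43 tested PPAR targets of the fasting switch, 3 were called, all higher, 30 lay above 0 and the median log2 fold change was 0.15. Over all genes tested 6547 of 12989 lay above 0 (50.4%) and the median was 0.0032. Further members had values that did not pass: Acot2, a mitochondrial thioesterase that frees fatty acids from CoA, at 6.27, 3.82 and 5.66 CPM in WT and 8.80, 10.8 and 14.6 in hetX753 (log2 1.11, adjusted p = 0.103), and Angptl4, a secreted inhibitor of lipoprotein lipase, at log2 1.28 (adjusted p = 0.186). Left out one library at a time, Cpt1a and Ucp3 were called in 3 of 9 fits each and Cat in 2, with the highest adjusted p of Cpt1a at 0.0986 without WT 2, of Ucp3 at 0.184 without hetX753 3 and of Cat at 0.243 without hetX753 3. Of the 13 other settings Cpt1a was called in all 13, Cat in 8 and Ucp3 in 7. Cat lost its call with library totals (0.0927), and both Cat and Ucp3 with limma-voom (0.0549 and 0.0549) and the block (0.0565 and 0.0505). The list's median ranged from 0.041 without hetX753 2 to 0.25 without hetX753 1 when 1 library was left out.

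**Figure D2:**
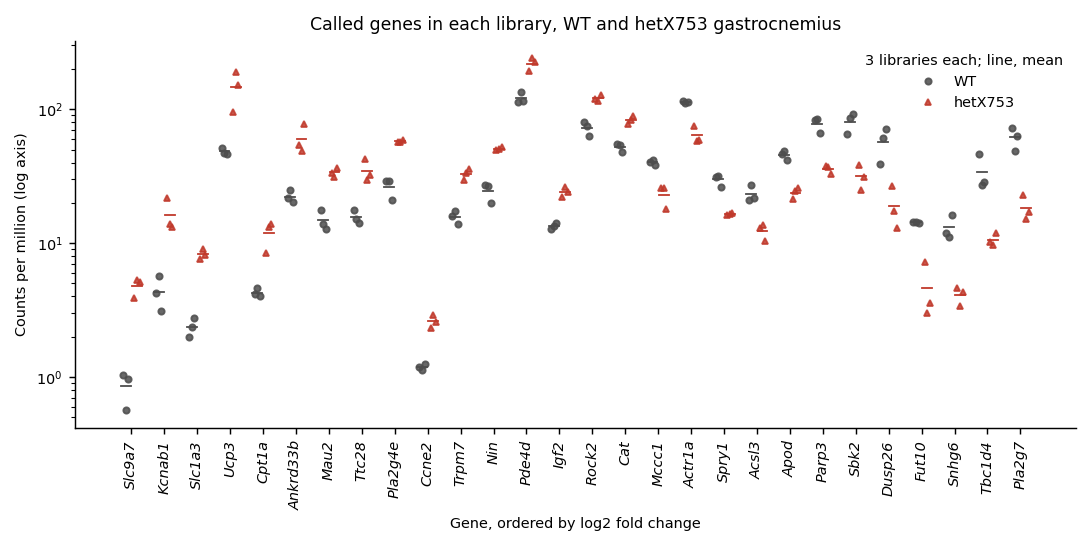
CPM on a log axis for 28 called genes in each of the 3 WT libraries (grey circles) and the 3 hetX753 libraries (red triangles), with a line at each group mean. For each gene shown the groups do not overlap, as at Ccne2, whose WT libraries lie between 1.14 and 1.26 CPM and hetX753 libraries between 2.34 and 2.88.

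Other steps of fuel use moved as single genes, and their lists stayed near the typical gene. Tbc1d4, the Rab GTPase-activating protein that holds glucose transporters inside the cell until insulin signals through Akt, fell from 46.2, 27.3 and 28.8 CPM in WT to 10.2, 9.63 and 11.95 in hetX753 (log2 -1.69, SE 0.21, adjusted p = 0.0168). The hetX753 libraries lay close together and WT 1 was the highest of all. Its relative Tbc1d1, which acts in response to contraction and AMPK, stood at log2 0.45 (adjusted p = 0.127), and Prkag2, a regulatory subunit of AMPK, at -0.59 (adjusted p = 0.133). Tbc1d4 was the 1 call among 48 tested genes of insulin signalling and glucose uptake, of which 26 lay above 0, with a median of 0.047. It was called in 6 of the 9 fits without 1 library (highest adjusted p 0.0609 without hetX753 2) and in all 13 other settings.

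Acsl3, which activates long-chain fatty acids at the endoplasmic reticulum and lipid droplets, fell from 20.9, 27.2 and 21.6 to 12.9, 13.6 and 10.3 CPM (log2 -0.92, SE 0.16, adjusted p = 0.0403). Mccc1, a subunit of the carboxylase that breaks down leucine, fell from 40.6, 41.7 and 38.4 to 25.7, 25.6 and 17.9 CPM (log2 -0.80, SE 0.14, adjusted p = 0.0379), and hetX753 3 was its lowest library. Of 48 tested genes of fatty acid uptake, storage and beta-oxidation, 2 were called higher (Cpt1a and Ucp3) and 1 lower (Acsl3), 28 lay above 0 and the median was 0.042. Mgll, the lipase of monoglycerides, was the closest of the rest to the threshold, at 33.6 to 37.6 CPM in WT and 46.1 to 55.4 in hetX753 (log2 0.53, adjusted p = 0.0742). In the list of glycolysis and glycogen enzymes 1 of 59 was called, the retrotransposed copy Eno1b, and the median was -0.08, or 0.039 with library totals. Pfkfb2, which makes an activator of phosphofructokinase, stood at log2 0.61 (adjusted p = 0.125), the pyruvate dehydrogenase subunit Pdha1 at 0.35 (adjusted p = 0.129) and the phosphorylase kinase subunit Phkb at 0.39 (adjusted p = 0.129). Of 34 peroxisomal genes Cat was the 1 call, with a median of -0.02, or 0.11 with library totals. Without 1 library Acsl3 and Mccc1 were called in 2 of 9 fits (highest adjusted p 0.184 without hetX753 3 and 0.143 without WT 2). Acsl3 was called in 10 of the 13 other settings and not with library totals (0.0918), the replicate block (0.0530) or limma-voom (0.0513). Mccc1 lost its call with library totals (0.0875).

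Enzymes that release or inactivate lipid mediators changed in both directions. Pla2g4e, a cytosolic phospholipase A2 that also makes N-acylated phospholipids, rose from 29.3, 28.9 and 21.0 CPM in WT to 56.6, 57.3 and 58.8 in hetX753 (log2 1.12, SE 0.15, adjusted p = 0.0195). The 3 hetX753 libraries were nearly equal. Pla2g7, the secreted acetylhydrolase that inactivates platelet-activating factor, fell from 72.4, 48.9 and 63.5 to 22.8, 15.1 and 17.1 CPM (log2 -1.75, SE 0.24, adjusted p = 0.0202), and Pafah2, its relative inside cells, stood at 5.09, 4.70 and 4.45 against 2.19, 3.59 and 2.86 CPM without passing (log2 -0.72, adjusted p = 0.124). Apod, a lipocalin that carries small lipids, fell from 46.4, 48.6 and 41.8 to 21.3, 24.3 and 25.7 CPM (log2 -0.94, SE 0.16, adjusted p = 0.0330). Plbd1, a lysosomal phospholipase B-like protein, fell from 16.8, 15.1 and 18.8 to 7.37, 10.5 and 8.35 CPM (log2 -0.95, SE 0.16, adjusted p = 0.0330). Among 44 tested phospholipase and lipid mediator genes 1 was called higher and 1 lower, 19 lay above 0 and the median was -0.049, or 0.07 with library totals.

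Apod is also made by fibroblasts and Plbd1 by myeloid cells, and the marker lists of these cells are given beside them, with no marker called. Fibroblast and fibro-adipogenic progenitor markers lay below 0 in 19 of 21, with a median of -0.35 and a summed level of 2406 to 3135 CPM in WT and 2056 to 2297 in hetX753. Macrophage markers lay below 0 in 22 of 26 tested, with a median of -0.34 and summed levels of 184 to 295 and 197 to 207 CPM, which overlapped. The fibroblast sums did not overlap between the groups. Leaving out 1 library, the fibroblast median ranged from -0.42 without WT 1 to -0.27 without WT 2 and the macrophage median from -0.54 without WT 1 to -0.21 without WT 3. With the length and GC trend removed they were -0.26 and -0.16. No marker of either list was at 0, and 0 of either were called (edgeR; 5 and 6 had an unadjusted p under 0.05, all lower). The part of these cells in the fall of Apod and Plbd1 was not tested, and in whole muscle fewer cells of a type and less RNA per cell cannot be told apart. Pla2g4e and Pla2g7 were called in 5 of 9 fits without 1 library (highest adjusted p 0.0914 and 0.0950, each without hetX753 3), Plbd1 in 3 and Apod in 2. Plbd1 lost its call with library totals (0.0664), Apod with library totals (0.132) and with the length and GC trend removed (0.0844), and Pla2g7 without WT 3 and hetL1002P 3 together (0.0607).

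The named channels and transporters that were called rose. Kcnab1, a cytoplasmic subunit that shapes the closing of voltage-gated potassium channels, stood at 4.26, 5.68 and 3.09 CPM in WT and 21.7, 14.01 and 13.2 in hetX753 (log2 1.91, SE 0.26, adjusted p = 0.0202), with hetX753 1 the highest. Slc1a3, a glutamate transporter, stood at 1.98, 2.37 and 2.76 CPM in WT and 7.58, 9.04 and 8.17 in hetX753 (log2 1.81, SE 0.30, adjusted p = 0.0330), with little spread in either group. Slc9a7, a sodium-proton exchanger of the Golgi that lies on chromosome X and was chosen for mention after its values were seen, stood at 1.04, 0.568 and 0.967 CPM in WT and 3.88, 5.33 and 5.12 in hetX753 (log2 2.44, SE 0.31, adjusted p = 0.0168).

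Trpm7, a channel for magnesium and calcium fused to a kinase, rose from 15.9, 17.2 and 13.9 to 29.5, 33.3 and 36.0 CPM (log2 1.07, SE 0.19, adjusted p = 0.0388). Clic5, a chloride channel protein tied to the actin skeleton, was the most abundant called gene, at 166, 144 and 107 CPM in WT and 275, 242 and 289 in hetX753 (log2 0.95, SE 0.17, adjusted p = 0.0453). Smaller rises were called in Kcnma1, the calcium-activated large-conductance potassium channel (log2 0.62, adjusted p = 0.0450), and in Slc20a2, a phosphate transporter (log2 0.80, adjusted p = 0.0450). Of 38 tested potassium channel genes 2 were called, both higher, 21 lay above 0 and the median was 0.088. Slc1a3 was the 1 call among 39 amino acid transporters (median 0.17), where the lysosomal Slc15a4 stood at -0.61 (adjusted p = 0.111). Trpm7 was the 1 call among 42 genes of calcium release and uptake (median -0.049, or 0.071 with library totals). In that list the calcium channel subunit Cacna2d1 stood at log2 0.77 (adjusted p = 0.0768), and the junctophilins, which tie the T-tubule to the calcium store, stood on opposite sides of 0, Jph1 at 0.43 (adjusted p = 0.0893) and Jph2 at -0.40 (adjusted p = 0.134). Without 1 library Kcnab1 was called in 6 of 9 fits (highest adjusted p 0.0864 without WT 3), Slc9a7 in 5 (0.0781 without hetX753 3), Slc1a3 in 3 (0.143 without hetX753 3), and Kcnma1 in 1 (0.214 without hetX753 3). Kcnma1 was called in 7 of the 13 other settings, and lost its call with the length and GC trend removed (0.344), library totals (0.0872), limma-voom (0.0554) and the block (0.0681) among others. With library totals Slc1a3 (0.0612), Clic5 (0.0918), Trpm7 (0.0869) and Slc20a2 (0.0612) also lost their calls, and Slc20a2 did with limma-voom (0.0549).

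Called genes of signalling, also grouped after their values were seen, moved both ways. Igf2, the fetal growth factor that satellite cells and fibres also use, rose from 12.8, 13.3 and 14.1 to 22.2, 26.3 and 24.0 CPM (log2 0.85, SE 0.11, adjusted p = 0.0195), with narrow groups. Pde4d, a phosphodiesterase that ends cyclic AMP signals, rose from 113, 136 and 115 to 192, 240.2 and 227 CPM (log2 0.86, SE 0.12, adjusted p = 0.0231). Calls of smaller size, all higher, were the kinases Map4k5 (log2 0.81, adjusted p = 0.0330) and Rock2, the effector of RhoA on the actin skeleton (log2 0.72, adjusted p = 0.0330), and the inositol phosphatase Synj2 (log2 0.94, adjusted p = 0.0330).

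Lower were Dusp26, a dual-specificity phosphatase, at 39.1, 61.1 and 71.5 CPM in WT and 26.7, 17.5 and 12.97 in hetX753 (log2 -1.58, SE 0.28, adjusted p = 0.0403), with WT 1 the lowest of its group and hetX753 1 the highest. Sbk2, a kinase gene, fell from 65.1, 85.6 and 91.9 to 38.4, 24.9 and 31.4 CPM (log2 -1.35, SE 0.21, adjusted p = 0.0285), with the groups apart. Spry1, an inhibitor of receptor tyrosine kinase signals that keeps satellite cells quiescent, fell from 31.5, 32.0 and 26.3 to 16.3, 16.4 and 16.7 CPM (log2 -0.86, SE 0.16, adjusted p = 0.0450). Fez1, a kinesin adaptor best known in axons, fell from 4.68, 4.44 and 4.69 to 2.19, 2.41 and 2.40 CPM (log2 -0.98, SE 0.17, adjusted p = 0.0379), and neither group varied much. Spry1 was the 1 call among 38 satellite cell and myogenic genes, of which 22 lay above 0 (median 0.12), where the transcription factor Srf stood at -0.45 (adjusted p = 0.124) and the proteoglycan Sdc4 at -0.50 (adjusted p = 0.137). Igf2 was the 1 call among 33 genes of the IGF axis and imprinted growth genes (median 0.12), where Peg3 stood at 2.04, 2.68 and 0.628 CPM in WT and 5.57, 6.87 and 6.65 in hetX753 (log2 1.82, adjusted p = 0.122) and the binding protein Igfbp6 at -0.59 (adjusted p = 0.121). Without 1 library Igf2 was called in 4 of 9 fits (highest adjusted p 0.0986 without WT 2), Pde4d, Sbk2 and Dusp26 in 3 each and Spry1 in 2, and the highest adjusted p of these 4, each with hetX753 3 left out, was 0.0950, 0.130, 0.174 and 0.184. Igf2, Pde4d, Map4k5 and Sbk2 were called in all 13 other settings. Dusp26 was called in 7, Spry1 and Rock2 in 9 and Fez1 in 8: Spry1, Dusp26, Fez1 and Rock2 lost their calls with library totals (0.143, 0.0682, 0.105 and 0.0682). The same genes also lost them with the length and GC trend removed (0.0614, 0.0510, 0.0878 and 0.0691, in that order), and so did Synj2 (0.0614).

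Some genes of chromosomes, DNA repair and the cell cycle were called, while none tested in the checkpoint that BubR1 serves was. Mau2, a partner of the loader that places cohesin on chromosomes, rose from 17.8, 13.9 and 12.9 to 33.4, 31.4 and 36.6 CPM (log2 1.18, SE 0.21, adjusted p = 0.0385). Ccne2, the cyclin E of entry into S phase, was scarce and rose from 1.18, 1.14 and 1.26 to 2.34, 2.88 and 2.58 CPM (log2 1.12, SE 0.20, adjusted p = 0.0417). Nin, a protein that anchors microtubules at the centrosome, rose from 27.2, 26.5 and 19.8 to 49.6, 50.6 and 52.3 CPM (log2 1.05, SE 0.17, adjusted p = 0.0300), and Ttc28 from 17.6, 15.2 and 14.1 to 42.6, 29.8 and 32.1 CPM (log2 1.16, SE 0.17, adjusted p = 0.0277).

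Parp3, an ADP-ribosyltransferase that acts at DNA breaks, fell from 82.9, 84.9 and 66.9 to 37.9, 37.2 and 33.0 CPM (log2 -1.12, SE 0.15, adjusted p = 0.0195). Actr1a, the actin-related filament protein of dynactin, which links cargo and spindle poles to dynein, fell from 115, 112 and 114 to 74.6, 57.7 and 59.1 CPM (log2 -0.83, SE 0.13, adjusted p = 0.0319). Cbfb, the partner of Runx transcription factors, rose at log2 0.75 (adjusted p = 0.0330), as did the splicing-related Sugp2 at 0.81 (adjusted p = 0.0285) and the zinc finger gene Zfp612 at 0.98 (adjusted p = 0.0395).

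Of 37 genes of the spindle assembly checkpoint and anaphase control with a row in the deposited counts, 23 passed the filter on low counts and 0 were called (edgeR; 5 had an unadjusted p under 0.05, 1 higher and 4 lower). They lay 8 above and 15 below 0 around a median of -0.067, or 0.033 with library totals, where the median of all genes tested was 0.122. Apart from Bub1b, the members with the smallest p were Cdc27, a subunit of the anaphase-promoting complex, at 12.4 to 14.8 CPM in WT and 19.1 to 19.8 in hetX753 (log2 0.50, adjusted p = 0.149), Anapc4, another subunit, at log2 -0.23 (adjusted p = 0.232), and Pttg1, the securin that guards sister chromatid cohesion. Pttg1 stood at 58.3, 62.2 and 82.8 CPM in WT and 27.3, 1.38 and 21.3 in hetX753 (log2 -2.02, adjusted p = 0.171), where hetX753 2 was far below the rest.

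Targets of p53 and inhibitors of cyclin-dependent kinases had 0 calls among 37 (edgeR; 10 with an unadjusted p under 0.05), with 17 above 0 and a median of -0.036, or 0.087 with library totals. Rrm2b, the p53-induced ribonucleotide reductase subunit, stood at 15.2, 15.5 and 13.4 CPM in WT and 22.7, 26.4 and 22.8 in hetX753 (log2 0.70, adjusted p = 0.0793), Rb1 at log2 0.66, Cdkn1c at 0.48 and Perp, a p53 target of cell junctions, at -1.12 (adjusted p = 0.136). Of 36 tested proliferation genes Ccne2 was the 1 call, 14 lay above 0 and the median was -0.094, or 0.029 with library totals, with Rrm2 at log2 0.98 (adjusted p = 0.161) and Cdk4 at -0.43 (adjusted p = 0.162). Secreted factors linked to senescence had 0 calls among 18 (edgeR; 5 with an unadjusted p under 0.05) and 14 below 0, with a median of -0.25. Without 1 library Parp3 was called in 5 of 9 fits (highest adjusted p 0.0950 without hetX753 3), Ttc28, Actr1a and Cbfb in 3, Mau2 and Nin in 2, and Ccne2 in 1 (0.174 without hetX753 3). Ttc28, Actr1a and Cbfb were called in all 13 other settings and Ccne2 in 8, while Mau2, Nin and Parp3 lost their calls with library totals (0.0861, 0.0682 and 0.0664).

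Further called genes include some that act in membrane traffic, given here with others of different or unstated role. They are grouped after their values were seen, and no list of membrane traffic genes was tested. Trappc12, a subunit of a TRAPP complex of the Golgi that is also active in autophagy, was among the 7 genes with the smallest adjusted p, at 14.5, 13.7 and 13.9 CPM in WT and 24.6, 24.5 and 27.1 in hetX753 (log2 0.85, SE 0.11, adjusted p = 0.0168). Sec31b, a coat protein of vesicles leaving the endoplasmic reticulum, rose from 24.0, 19 and 16.5 to 41.4, 52.0 and 64.2 CPM (log2 1.401, SE 0.20, adjusted p = 0.0271). Golga3, a golgin (log2 0.59, adjusted p = 0.0321), Optn, a receptor that brings cargo to autophagosomes (log2 0.64, adjusted p = 0.0395), and the ubiquitin ligase subunit Fbxo45 (log2 0.60, adjusted p = 0.0358), rose with little spread: Optn ranged from 117 to 118 CPM in hetX753 and from 69.6 to 77.8 in WT. Tmed8 (log2 1.12), Tmco4 (0.73), the polarity protein Mpp5 (0.72) and Tm6sf1 (1.001) were also higher, at an adjusted p of 0.0330 to 0.0453. Lower were Tssc1, whose product binds an endosomal recycling complex, at 8.85, 9.19 and 9.04 against 4.38, 5.33 and 5.08 CPM (log2 -0.87, SE 0.15, adjusted p = 0.0395), and Ccdc43 (log2 -0.62, adjusted p = 0.0330).

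Trappc12 and Tssc1, which moved in opposite directions, are neighbours on chromosome 12, at 28690620 to 28750485 and 28751802 to 28867494 (GRCm38.p6), with 1316 bases between them and no tested gene in the gap. Trappc12 was called in 5 of 9 fits without 1 library (highest adjusted p 0.0826 without hetX753 3) and in all 13 other settings. Golga3, Tmed8 and Mpp5 lost their calls with the length and GC trend removed (0.213, 0.0686 and 0.0569). With library totals the calls of Golga3 (0.0563), Tmed8 (0.0630), Tssc1 (0.0869), Ccdc43 (0.0959), Sec31b (0.0563), Mpp5 (0.0664), Tm6sf1 (0.0732) and Fbxo45 (0.0630) were lost. Tssc1 lost its call with the replicate block (0.0536), as did Tm6sf1 (0.0689), Tmed8 (0.0565) and Mpp5 (0.0505), and Tm6sf1 (0.0622) and Tmed8 (0.0506) lost theirs with limma-voom.

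The aldo-keto reductases Akr1c14, a hydroxysteroid dehydrogenase, and Akr1e1, an anhydrofructose reductase, lie 500562 bases apart on chromosome 13 with no tested gene between them, and went opposite ways. Akr1c14 rose from 0.681, 0.826 and 0.774 to 2.69, 3.31 and 1.75 CPM (log2 1.78, SE 0.32, adjusted p = 0.0439), and Akr1e1 fell from 16.5, 15.9 and 17.7 to 9.52, 9.04 and 7.52 CPM (log2 -0.94, SE 0.15, adjusted p = 0.0285). The other 4 tested aldo-keto reductases lay below 0 and were not called. Antioxidant and glutathione enzymes had 2 calls among 57, both higher, Cat and the low-level Pyroxd2, while 46 of 57 lay below 0 with a median of -0.20 (-0.067 with the length and GC trend removed). The glutathione transferases Gsta4 (log2 -0.58, adjusted p = 0.110) and Gsto1 (-0.68, adjusted p = 0.121) did not pass. Akr1e1 was called in all 13 other settings, and Akr1c14 lost its call with limma-voom (0.0643) and library totals (0.0664). Without 1 library these were called in 2 and 1 of 9 fits (highest adjusted p 0.126 without hetX753 3 and 0.154 without hetX753 2).

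Of the called genes whose role in muscle is less known, Ankrd33b kept its call most often. It stood at 21.6, 25.1 and 20.2 CPM in WT and 54.0, 48.6 and 78.1 in hetX753 (log2 1.43, SE 0.18, adjusted p = 0.0168) and was called in 7 of 9 fits without 1 library, the exceptions being those without WT 1 (0.0689) and without WT 3 (0.0658). Ocel1 rose from 2.22, 2.84 and 3.09 to 6.75, 5.56 and 8.12 CPM (log2 1.33, SE 0.20, adjusted p = 0.0285). Fut10, of the fucosyltransferase family, fell from 14.5, 14.4 and 14.1 to 7.19, 3.00 and 3.60 CPM (log2 -1.63, SE 0.27, adjusted p = 0.0330), where the WT libraries were nearly equal and hetX753 1 was the highest of its group. Fut10 and Dusp26, both lower, lie 90266 bases apart on chromosome 8 with 3 tested genes between them. The highest adjusted p without 1 library was 0.122 without hetX753 3 for Ocel1 and 0.174 without hetX753 3 for Fut10, which were called in 3 of 9 such fits each. Fut10 lost its call with library totals (0.0728) and without WT 3 and hetL1002P 3 together (0.0536).

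Several calls were made at low levels. Nefh, the heavy neurofilament chain of axons, had 2, 0 and 0 counts in WT and 47, 40 and 13 in hetX753 (adjusted p = 0.0285). Schwann cell and nerve markers lay above 0 in 11 of 17 tested (median 0.10), with 0 of 17 called (edgeR; 1 had an unadjusted p under 0.05). Their summed levels overlapped between the groups, at 151 to 273 CPM in WT and 198 to 233 in hetX753. The part of nerve in the Nefh counts was not tested. Hist2h2ac, a histone H2A gene of the replication-dependent cluster, had 4, 1 and 2 counts in WT and 40, 27 and 34 in hetX753 (adjusted p = 0.0168) and kept its call in 7 of 9 fits without 1 library, the exceptions being those without WT 1 (0.0617) and hetX753 3 (0.0567). It was the 1 call among 12 tested cluster histones, of which 6 lay above 0, and its close copies may share its reads. Grk1, the kinase of rhodopsin, stood at 1.07, 0.516 and 0.822 CPM in WT and 3.88, 2.88 and 7.06 in hetX753 (log2 2.47, SE 0.38, adjusted p = 0.0285), and the mitochondrial oxidoreductase gene Pyroxd2 at 0.296, 0.723 and 0.338 CPM in WT and 1.58, 2.92 and 2.26 in hetX753 (log2 2.36, SE 0.38, adjusted p = 0.0327).

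Eno1b, a retrotransposed copy of enolase 1 which may share reads with its parent, stood at 0.947, 0.826 and 0.435 CPM in WT and 21.7, 2.17 and 17.4 in hetX753 (log2 4.18, SE 0.74, adjusted p = 0.0395). Its hetX753 2 library lay far below the others, and its call was made in 1 of 9 fits without 1 library and in 6 of 13 other settings. Cyp2f2, a cytochrome P450, fell from 2.49, 4.65 and 2.76 to 0.826, 1.07 and 0.785 CPM (log2 -1.86, SE 0.30, adjusted p = 0.0309), and Lrtm2 from 1.69, 4.23 and 3.77 to 0.467, 0.829 and 0.785 CPM (log2 -2.20, SE 0.38, adjusted p = 0.0379). The groups did not overlap at these genes either, and the highest adjusted p without 1 library was 0.193 without WT 3 for Eno1b, 0.114 without WT 2 for Nefh, 0.115 without WT 2 for Grk1, 0.127 without hetX753 3 for Pyroxd2, 0.151 without hetX753 3 for Cyp2f2 and 0.162 without hetX753 3 for Lrtm2. With library totals Cyp2f2 (0.0664), Lrtm2 (0.0732), Eno1b (0.0630) and Pyroxd2 (0.0503) lost their calls, and Lrtm2 (0.0862) and Eno1b (0.161) did with limma-voom. Eno1b also lost its call with the length and GC trend removed (0.0614).

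Of the 5 called genes that are not protein-coding, 2 rose and 3 fell. The 2 that rose are numbered cDNA clones and are not described. Of those that fell, Snhg6, a host gene of small nucleolar RNAs, went from 11.9, 11.2 and 16.2 CPM in WT to 4.63, 3.39 and 4.34 in hetX753 (log2 -1.66, SE 0.19, adjusted p = 0.0168), and was called in 7 of 9 fits without 1 library (highest adjusted p 0.0567 without hetX753 3). Snhg18 fell from 3.79, 4.34 and 5.66 to 0.611, 1.42 and 0.323 CPM (log2 -2.52, SE 0.39, adjusted p = 0.0285), with hetX753 2 the highest of its group. The pseudogene Gpr137b-ps had 45, 33 and 29 counts in WT and 9, 2 and 6 in hetX753 (log2 -2.67, adjusted p = 0.0271), and may share reads with its parent gene. Of 12 tested Snhg genes 2 were called, both lower, and 7 lay below 0, with a median of -0.30 (-0.019 with the length and GC trend removed). Snhg8 stood at -0.65 (adjusted p = 0.136). Snhg18 and Gpr137b-ps were called in 3 of 9 fits without 1 library (highest adjusted p 0.0986 without WT 2 for both), and all 3 genes in all 13 other settings.

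Genes of the sarcomere scaffold and of the sarcolemma complexes stood above 0 more often than not, without a call. Over all genes tested 50.4% lay above 0. Titin-linked scaffold and stretch-sensing genes had 29 of 48 above 0 and a median of 0.12, with 0 called (edgeR; 18 had an unadjusted p under 0.05, 15 higher and 3 lower). Nrap, which joins actin filaments to the membrane as fibres form and end, came closest, at 1191, 1279.8 and 1272 CPM in WT and 1874, 2043 and 1966 in hetX753 (log2 0.65, adjusted p = 0.0581). Nebulin (Neb), the ruler of the thin filament, stood at 2988, 2687 and 1523 CPM in WT and 4156, 4657 and 4008 in hetX753 (log2 0.83, adjusted p = 0.127), where WT 3 was far below the other WT libraries. The repair-associated Xirp1 stood at log2 1.36 (adjusted p = 0.126).

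Dystrophin and integrin complex genes had 28 of 41 above 0, a median of 0.18 and 0 calls (edgeR; 15 had an unadjusted p under 0.05, 12 higher and 3 lower). Erythrocytic beta-spectrin (Sptb), part of the membrane skeleton, stood at 275, 299 and 220.1 CPM in WT and 482, 419 and 530.4 in hetX753 (log2 0.85, adjusted p = 0.0656). Dystrophin (Dmd) stood at 45.2, 45.6 and 26.2 CPM in WT and 79.2, 84.4 and 89.8 in hetX753 (log2 1.11, adjusted p = 0.114) and delta-sarcoglycan (Sgcd) at log2 0.78 (adjusted p = 0.136), while the annexin Anxa5 of membrane repair stood at -0.56 (adjusted p = 0.107). Leaving out 1 library, the medians of the scaffold and dystrophin lists ranged from 0.06 without WT 3 to 0.17 without WT 2 and from 0.11 without WT 3 to 0.28 without WT 1. With the length and GC trend removed they were 0.14 and 0.073.

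No gene of the fibre-type lists was called. Slow fibre genes had 10 of 21 above 0 and a median of -0.016, or 0.12 with library totals and 0.25 with the length and GC trend removed (edgeR; 6 had an unadjusted p under 0.05, all higher). Among them the small heat shock protein Hspb7 stood at 187, 289 and 249.9 CPM in WT and 428, 496 and 517 in hetX753 (log2 0.99, adjusted p = 0.0753), the nuclear receptor Esrrg at 9.94, 10.8 and 5.85 CPM in WT and 19.1, 15.7 and 30.8 in hetX753 (log2 1.30, adjusted p = 0.0761), and the stretch sensor Csrp3 at 42.6, 90.8 and 91.3 CPM in WT and 217, 152 and 212 in hetX753 (log2 1.38, adjusted p = 0.143). The groups did not overlap at these genes. In the whole list hetX753 lay wholly above WT at 4 of 21 genes and wholly below at 1. Over all genes tested these shares were 16.7% and 15.8%. The slow fibre median ranged from -0.19 without hetX753 2 to 0.30 without WT 2. Fast fibre genes had 17 of 25 below 0 and a median of -0.20 (-0.022 with the trend removed), and 0 calls (edgeR; 10 had an unadjusted p under 0.05, 1 higher and 9 lower), with fast troponin C (Tnnc2) at log2 -0.66 (adjusted p = 0.136) and beta-tropomyosin (Tpm2) at -0.62 (adjusted p = 0.134).

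**Figure D3:**
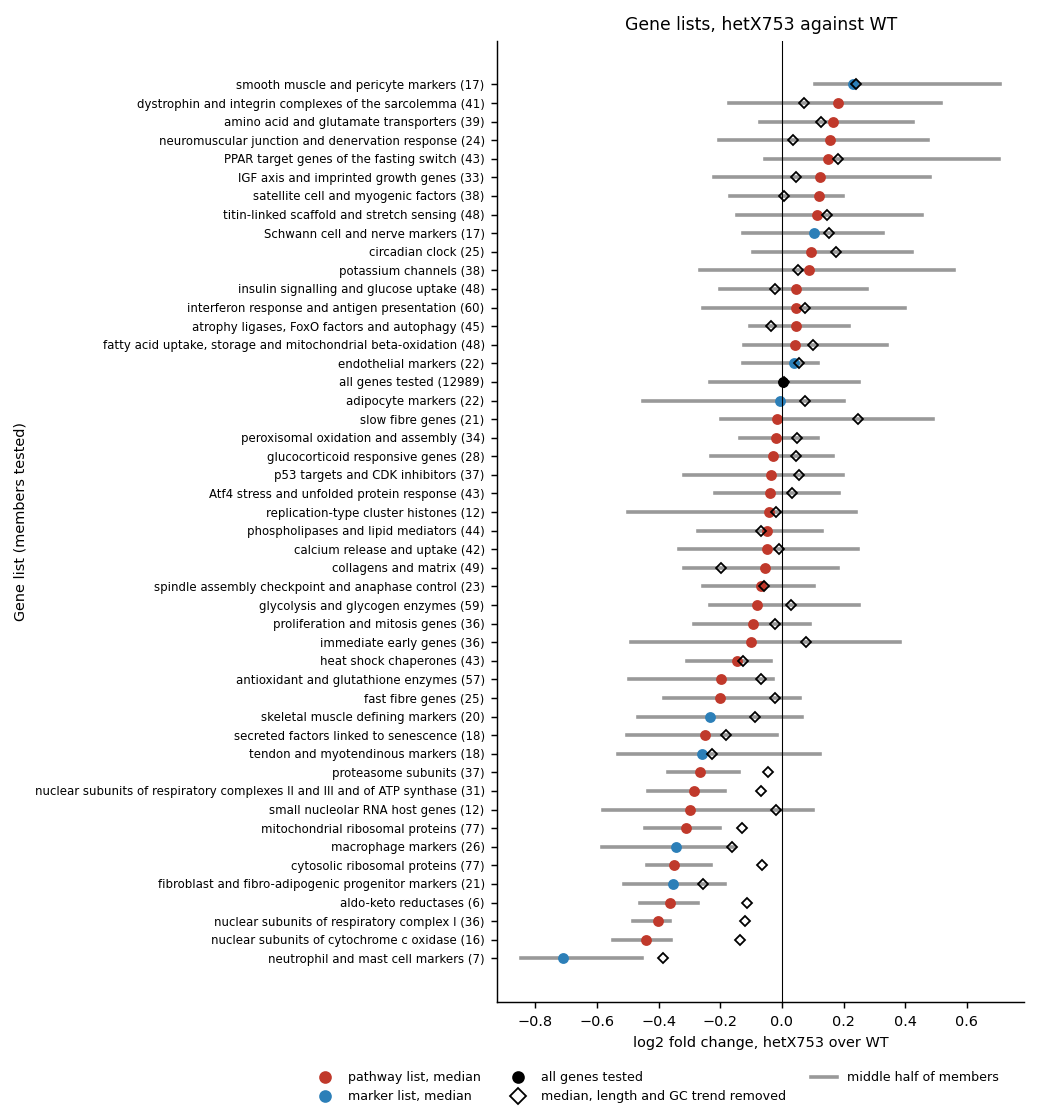
Median log2 fold change of hetX753 over WT (x axis) in each list with at least 5 tested members (y axis, number tested in parentheses). Filled circles are medians (red for pathways, blue for cell type markers, black for all genes), grey bars span the interquartile range of the members, and open diamonds are medians with the length and GC trend removed. The diamonds of the ribosomal, respiratory and proteasome lists lie nearer 0 than their circles.

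Respiratory chain, ribosomal and proteasome genes stood below 0 in nearly all cases, without a call. Nuclear genes of respiratory complex I lay below 0 in 36 of 36 (median -0.40), those of complexes II and III and ATP synthase in 31 of 31 (-0.29) and those of cytochrome c oxidase in 14 of 16 (-0.44). Cytosolic ribosomal proteins lay below 0 in 76 of 77 (median -0.35), mitochondrial ribosomal proteins in 72 of 77 (-0.31) and proteasome subunits in 35 of 37 (-0.26). In none of these 6 lists was a member called by edgeR, with 9, 5, 7, 26, 22 and 8 members lower at an unadjusted p under 0.05, in the same order, and 1 mitochondrial ribosomal protein gene higher. Examples are Cox5a at 523, 570.2 and 779 CPM in WT and 422, 349.8 and 367 in hetX753 (log2 -0.72, adjusted p = 0.179) and the ribosomal protein gene Rpl29 at 214, 233 and 279 CPM in WT and 175, 174 and 151 in hetX753 (log2 -0.54, adjusted p = 0.124). In both genes WT 3 was the highest library, though all 3 WT libraries lay above all 3 hetX753 libraries. The same held at 15.8% of all genes tested.

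Median transcript lengths of these lists ran from 694.5 to 1883 nucleotides, against 3423 over all genes tested. The cluster histone and Snhg lists, with median lengths of 1404.5 and 1353.5 nucleotides, had 6 and 7 of 12 members below 0. Their median log2 fold changes were -0.042 and -0.30, or -0.020 and -0.019 with the length and GC trend removed. Without WT 3 the medians of the 6 lists were -0.22, -0.12, -0.22, -0.19, -0.15 and -0.085, in the order given above, the values nearest 0 among the 6 fits that left out 1 WT or hetX753 library. Tested genes were ranked by length and cut into 5 classes of equal size. The median log2 fold change was -0.258 in the shortest class, -0.0961 in the second, 0.0136 in the third, 0.10 in the fourth and 0.256 in the longest. Among called genes 3 were higher and 6 lower in the shortest class, and 14 higher and 2 lower in the longest. Median lengths were 4317 nucleotides for the genes called higher and 2757 for those called lower. With the length and GC trend of each library removed, the medians were -0.12 for complex I, -0.069 for complexes II and III and ATP synthase, -0.13 for cytochrome c oxidase, -0.064 for cytosolic ribosomal proteins, -0.13 for mitochondrial ribosomal proteins and -0.044 for the proteasome. Removing the trend gave 103 calls, 71 higher and 32 lower, of which 55 were among the 66. The length trend ran with the genotypes in these libraries, and its part in the fold changes of single genes was not tested beyond that fit.

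**Figure D4:**
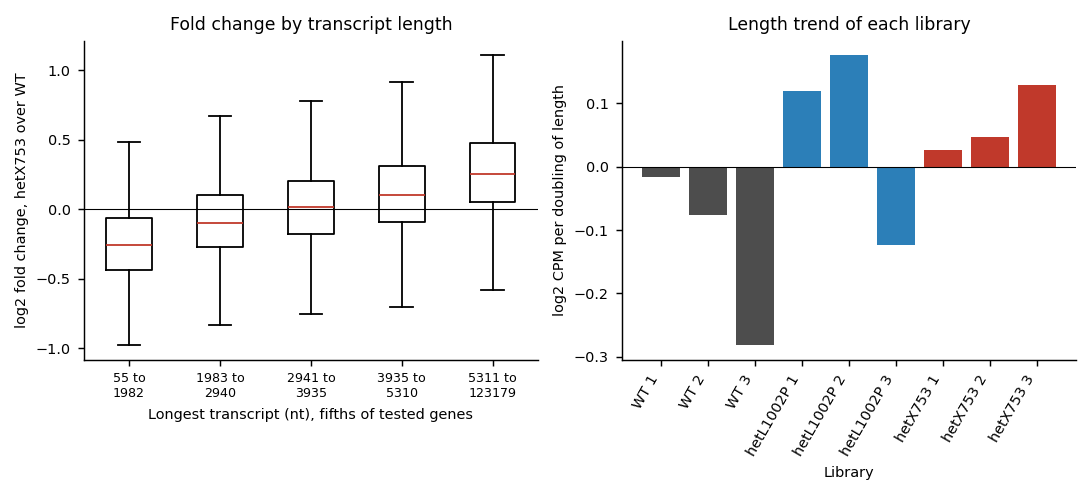
Left, log2 fold change of hetX753 over WT (y axis) in 5 equal-sized classes of tested genes by longest transcript in nucleotides (x axis): boxes span the interquartile range, red lines are medians and whiskers reach the last gene within 1.5 times the box. Right, slope of log2 CPM per doubling of transcript length in each of the 9 libraries, lowest in WT 3 at -0.282.

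Markers of other cell types had 0 calls in each of the 10 lists (edgeR). Neutrophil and mast cell markers lay below 0 in 7 of 7 tested (median -0.71), with a summed level of 13.8 to 28.8 CPM in WT and 10.3 to 14.3 in hetX753, and Mpo at 0 in all 6 libraries. Smooth muscle and pericyte markers lay above 0 in 14 of 17 (median 0.23), with summed levels that overlapped, at 5314 to 6349 and 5221 to 6057 CPM. Endothelial markers lay above 0 in 12 of 22 (median 0.04), at 1019 to 1082 CPM summed in WT and 1099 to 1317 in hetX753, which did not overlap, with the water channel Aqp1 at log2 0.56 (adjusted p = 0.119). Adipocyte markers lay 11 above and 11 below 0, and their summed levels overlapped at 2793 to 3819.8 and 2648 to 4204 CPM, with the lipid droplet protein Plin4 at 175, 229 and 128 CPM in WT and 214, 419.7 and 349.6 in hetX753 (log2 0.89, adjusted p = 0.126). Tendon markers had a median of -0.26, with the tendon transcription factor Scx at -0.75 (adjusted p = 0.0798). Lymphocyte markers were scarce: 3 of 19 could be tested, all above 0, at 1.499 to 1.96 CPM summed over these 3 in WT and 2.95 to 3.52 in hetX753, which did not overlap. Cd3e averaged 0.208 CPM in WT and 1.51 in hetX753, Cd79b 0.172 and 0.402, and Ptprc 1.34 and 1.39. A gene as scarce in WT as Cd3e or Cd79b can pass the filter through a group where it is higher. The direction of these 3 markers therefore says little about lymphocytes. Of 11 erythroid markers 3 were tested, and 6 haemoglobin genes were listed at 0. The collagen-processing protein Pcolce, a fibroblast marker, stood at 38.5, 44.6 and 41.8 CPM in WT and 28.7, 28.5 and 26.9 in hetX753 (log2 -0.57, adjusted p = 0.0689). Unadjusted p values under 0.05 were reached by 5 fibroblast, 6 macrophage, 7 smooth muscle, 6 adipocyte, 2 endothelial, 2 tendon, 1 Schwann cell, 1 lymphocyte, 1 neutrophil or mast cell and 0 erythroid markers. The adipocyte, endothelial, erythroid and Schwann cell medians changed sign in at least 1 fit that left out a library, and the neutrophil and mast cell median ranged from -0.90 without WT 1 to -0.34 without WT 3. The part of these cells in the calls was not tested.

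A direct test of hetX753 against hetL1002P, in the same fit, asked which differences set the carriers apart. It called 15 of 12989 genes (0.115%). Both comparisons use the same 3 hetX753 libraries, so each gene's values are given side by side. Pla2g7 stood at log2 -1.75 over WT and -1.88 over hetL1002P (adjusted p = 0.0266 in the direct test), Tbc1d4 at -1.69 and -1.49 (0.0355), Snhg6 at -1.66 and -1.41 (0.0266), and Parp3 at -1.12 and -1.10 (0.0266). Kcnab1 stood at 1.91 and 2.34 (0.0230), Slc1a3 at 1.81 and 2.02 (0.0414), Trappc12 at 0.85 and 0.83 (0.0266), Ankrd33b at 1.43 and 1.18 (0.0414) and Ocel1 at 1.33 and 1.56 (0.0266). Hist2h2ac, Gpr137b-ps and Ccdc43 were called as well, at adjusted p of 0.0230, 0.0266 and 0.0422. So was Iigp1, an interferon-induced GTPase that did not pass over WT (log2 2.17 over WT, adjusted p = 0.0581, and 3.05 over hetL1002P, 0.0355). The remaining 2 of the 15 are not described.

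The called PPAR targets missed the threshold of the direct test. Cpt1a stood at log2 1.18 over hetL1002P (95% interval 0.73 to 1.64, adjusted p = 0.0632), Ucp3 at 1.61 (0.97 to 2.26, 0.0707) and Cat at 0.42 (0.15 to 0.69, 0.340). Pla2g4e, called over WT, stood at -0.068 over hetL1002P (-0.39 to 0.25, 0.947), and Kcnma1 at 0.013 (-0.23 to 0.26, 0.988). In hetL1002P Pla2g4e averaged 60.3 ± 7.89 CPM (SD, n = 3), against 57.5 ± 1.13 in hetX753. Tm6sf1 (0.16, interval -0.22 to 0.55) and Ccne2 (0.34, interval -0.081 to 0.76) also had intervals that include 0, and a p above the threshold does not show that the carriers are alike. The direct test called 0 genes without hetL1002P 1 (edgeR; 823 had an unadjusted p under 0.05), 2 without hetL1002P 2, 3 with hetX753 3 left out and 7 with hetX753 1 left out. DESeq2 called 138.

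**Figure D5:**
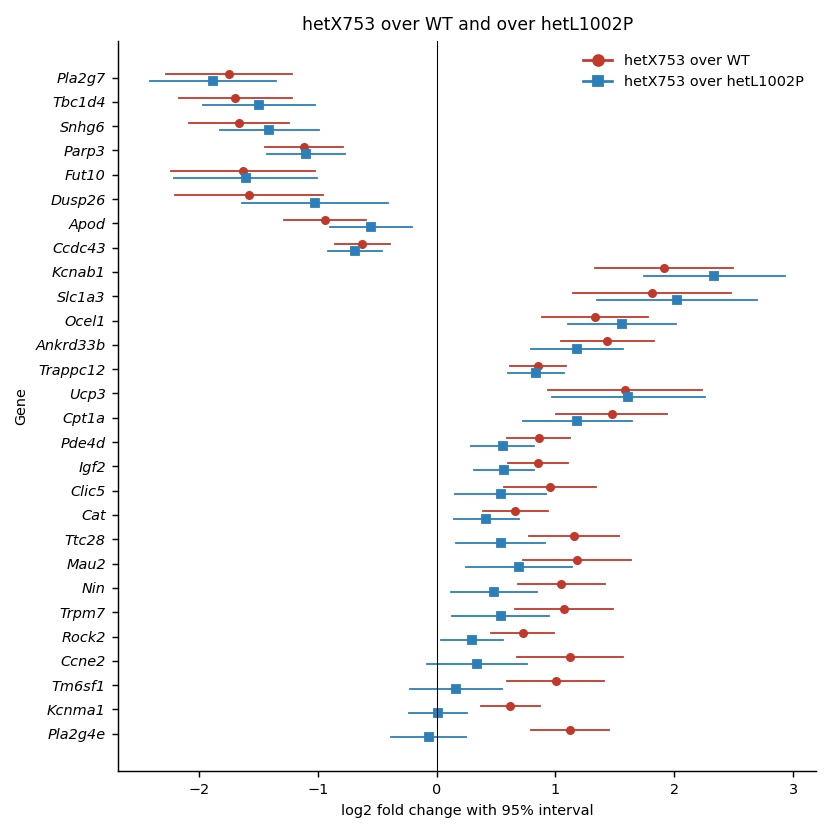
Log2 fold change of hetX753 over WT (red circles) and over hetL1002P (blue squares) on the x axis for 28 genes called over WT (y axis), with 95% intervals from the edgeR fit. Both sets use the same 3 hetX753 libraries. The squares of Pla2g4e and Kcnma1 lie at -0.068 and 0.013, those of Pla2g7 and Kcnab1 at -1.88 and 2.34.

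Called genes lay on every autosome but chromosome 10, and 1 on chromosome X. Chromosome 12 held 7 of 442 tested genes (1.58%, 6 higher and 1 lower) and chromosome 8 held 9 of 704 (1.28%, 7 higher and 2 lower), against 0.508% over all, while chromosome 10 held 0 of 641. Bub1b lies on chromosome 2 from 118598202 to 118641592. Within 2 Mb of it, 1 of 41 tested genes was called, Pla2g4e (2.44%), and within 10 Mb 3 of 139 (2.16%), which added Trpm7 and a predicted gene. Pla2g4e lies at 120166412 to 120245630 on the minus strand. Other pairs of called genes within 1 Mb of each other included Map4k5 and Nin, both higher and 118271 bases apart on chromosome 12, Mau2 and Sugp2, both higher and 191453 apart on chromosome 8, and Pla2g7 and Clic5, lower and higher and 522559 apart on chromosome 17.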

How the data were processed

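RNA of whole gastrocnemius was sequenced after TruSeq RNA Library Prep Kit v2 preparation, per the labels. The authors deposited whole-number counts per gene symbol, not normalized. Tools listed in the submitters' processing notes, without role or order, are featureCounts 1.4.6, Subread, Bowtie2 2.2.6 and TopHat2 2.0.14, with build mm10. The sources used here do not give the annotation, strand setting or filters. Sample titles gave each library its genotype. Replicates of a group differed by more than sampling noise in every pair (chi-square divided by its degrees of freedom, 14.33 to 65.62).

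Tests used edgeR 4.0.16 in R 4.3.3: filterByExpr on genotype, TMM scaling, robust estimation and the quasi-likelihood model. Genotype was the single term over the 9 libraries, which left 6 residual degrees of freedom, and Benjamini-Hochberg adjustment ran over all 12989 genes. Alternatives were DESeq2 1.42.0, limma 3.58.1 (voom, also with sample quality weights), other scalings and filters, the 2 genotypes alone, a replicate block, a length and GC offset per library (splines of 5 degrees of freedom, fitted to log-CPM at prior count 2) and libraries left out. Scripts were tested on simulated data. Coordinates and promoters come from RefSeq (GRCm38.p6; 99.33% of symbols matched 1 gene), lengths, GC and overlaps from GENCODE M21 (99.45% of tested genes). Lists were described by counts and medians, without a set test.

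Members, lists and rules were chosen with earlier results of these data known. Named genes were Bub1b, called genes other than predicted, Rik and sex-linked ones (Slc9a7 on chromosome X was added), and up to 4 members of each list with the smallest p; a few results under this rule are not reported here. Values in each library were required for called genes averaging at least 1 CPM among the 15 highest, 15 lowest or 10 smallest p.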

Additional observations from a re-analysis of the deposited data

How the results depend on the processing

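All 66 calls kept their direction in each setting that tested them, which groups that do not overlap made nearly certain beforehand. Of the 62 called genes followed across settings 22 were called in every setting other than leaving out 1 library and 0 in all 9 fits without 1 library (at most 7). Calls in hetX753 against WT (66, 43 higher and 23 lower) numbered 660 with DESeq2 (400 and 260), 31 with library totals alone (22 and 9), 254 on WT and hetX753 alone (170 and 84), 103 with the length and GC trend removed (71 and 32), and 340 without WT 3 and hetL1002P 3 together (203 and 137). Leaving out 1 library gave 0 to 669 calls, 0 to 408 higher and 0 to 261 lower, and DESeq2 was not rerun there. limma-voom called 55, and with sample quality weights, an alternative chosen after seeing the data, 537 (333 and 204; 65 shared). In hetX753 against hetL1002P (15 calls) DESeq2 gave 138, no low-count filter 38, and leaving out 1 library 0 to 19.

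Same-numbered WT and hetX753 libraries had correlated deviations of 0.0677, 0.164 and -0.144, so the numbers were not taken to pair them. With a replicate block on 9 libraries 66 genes were called in hetX753 against WT (52 shared with the fit without it; 39 higher, 27 lower) and 31 against hetL1002P. The block on WT and hetX753 alone gave 106 (61 and 45), and the block with the length and GC trend removed 152 (100 and 52). Causes of these differences were not tested.

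With 3 libraries a group, differences in scarce genes rest on few counts: 5 called genes averaged under 1 CPM.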

Other observations

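Lists of interferon, clock, atrophy, heat shock and matrix genes had 0 calls over WT by edgeR. Of 60 tested interferon and antigen presentation genes 32 lay above 0 (median 0.045), and 14 had an unadjusted p under 0.05. Iigp1, an interferon-induced GTPase, stood at 4.38, 3.72 and 13.6 CPM in WT and 40.1, 23.4 and 33.2 in hetX753 (log2 2.17, adjusted p = 0.0581), where WT 3 was the highest of its group. It was called in the direct test against hetL1002P, as given above. Gbp9 stood at 1.16 (adjusted p = 0.107), while Ly6e stood at -0.56 (adjusted p = 0.0768). Clock genes lay above 0 in 17 of 25 (median 0.093; 7 with an unadjusted p under 0.05), with Tef at 286 to 327 CPM in WT and 397 to 416 in hetX753 (log2 0.40, adjusted p = 0.114) and Rora at 0.53 (adjusted p = 0.126). Npas2 stood at 2.52, 0.568 and 0.338 CPM in WT and 0.108, 0.0789 and 0.277 in hetX753 (log2 -2.99, adjusted p = 0.129), where WT 1 was far above the rest. Fos, the immediate early gene, showed the same library apart, at 53.9, 5.94 and 7.20 CPM in WT and 3.92, 1.97 and 3.42 in hetX753 (adjusted p = 0.126).

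The muscle atrophy ligases Fbxo32 (log2 -0.72, adjusted p = 0.134) and Trim63 (-0.47, adjusted p = 0.136) lay below 0 while 28 of 45 atrophy and autophagy genes lay above it (median 0.045; 13 with an unadjusted p under 0.05). The chaperone Hspa5 of the endoplasmic reticulum stood at 125 to 139 CPM in WT and 172 to 174 in hetX753 (log2 0.39, adjusted p = 0.114) and asparagine synthetase (Asns), a target of Atf4, at 1.15, 1.24 and 1.499 CPM in WT and 2.19, 3.20 and 2.08 in hetX753 (log2 0.95, adjusted p = 0.126). Heat shock chaperones lay below 0 in 35 of 43 (median -0.15; 9 with an unadjusted p under 0.05). Among them Hspb3 stood at 29.0, 31.5 and 33.5 CPM in WT and 21.3, 20.2 and 18.1 in hetX753 (log2 -0.66, adjusted p = 0.0753) and Hspb8 at -0.52 (adjusted p = 0.157), on the other side of 0 from Hspb7. The median of 49 matrix genes was -0.056, or 0.053 with library totals, with the metalloproteinases Mmp14 at -0.87 (adjusted p = 0.103) and Mmp2 at -0.52 (adjusted p = 0.120).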
